A study of Mus musculus with 8 samples.

Results

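The lysosomal cathepsins described here are 10 genes, Ctsa, Ctsb, Ctsc, Ctsd, Ctse, Ctsh, Ctsk, Ctsl, Ctss and Ctsz, taken from the 30789 gene symbols of an Illumina mouse bead array. Every probe whose symbol was one of these names was kept, which gave 20 of the 45281 probes. The question was whether loading with modified lipoprotein changed their mRNA, and whether the probes of one gene gave the same answer. The study compared macrophages lavaged from the peritoneum of C57/BL6 mice of 8 weeks after thioglycollate, an irritant that draws them there. In the treated group 4 cultures received acetylated LDL (Ac-LDL), a modified lipoprotein taken up by scavenger receptors, at 120 μg/ml for 24 h, and 4 were mock-treated for the same time (control). The 8 arrays carry replicate numbers 1 to 4 in each group. The array names of replicates 1 and 2 of both groups share one leading number, and these arrays are called slide 1 here. Those of replicates 3 and 4 share another and are called slide 2.

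Cathepsins are proteases of the endosome and lysosome that are made as inactive precursors and sorted there mainly through mannose 6-phosphate receptors. Most are cysteine proteases of the papain family (Ctsb, Ctsc, Ctsh, Ctsk, Ctsl, Ctss and Ctsz), Ctsd and Ctse are aspartic proteases, and Ctsa is a serine carboxypeptidase. In macrophages they degrade ingested protein, trim the invariant chain of MHC class II and, once secreted, cut matrix proteins. Lysosomes are also where Ac-LDL is taken apart and its cholesteryl esters are cleaved.

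The 5 Ctsa probes carry the result, so their sequences are printed first, as deposited and 5′ to 3′. They follow the order of their annotated positions on the chromosome. Capitals in ILMN_3045359 mark the 48 bases found unchanged at the start of a RefSeq Ctsa transcript.
ILMN_3045359: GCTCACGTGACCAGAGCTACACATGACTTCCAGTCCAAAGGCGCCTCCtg
ILMN_1213617: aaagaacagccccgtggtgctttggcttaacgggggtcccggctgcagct
ILMN_2669714: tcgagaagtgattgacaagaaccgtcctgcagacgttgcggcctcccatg
ILMN_2681631: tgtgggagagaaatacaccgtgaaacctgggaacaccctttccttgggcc
ILMN_3120827: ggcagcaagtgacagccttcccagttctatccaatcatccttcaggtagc
By annotation ILMN_3045359 (position 376) and ILMN_3120827 (3244) refer to the same Ctsa transcript. ILMN_1213617 (528), ILMN_2669714 (2299) and ILMN_2681631 (3054) refer to a different Ctsa transcript, so the positions form no single series. None of the Ctsa probes shares a run of 20 bases with any other probe of the array on either strand.

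In the RefSeq gene table of GRCm38.p6, Ctsa lies at chr2:164832872-164841032. Pltp, which encodes a phospholipid transfer protein of plasma lipoproteins, lies at chr2:164839518-164857708, so the annotated spans share 1515 bases. The 48 matched bases of ILMN_3045359 sit at chr2:164833775-164833822 on the plus strand. The probe coordinates of the file name no build, and coordinates were not converted. By distance along the chromosome, ILMN_2669714 was annotated 6009 bases beyond the start of ILMN_3045359, ILMN_2681631 6764 bases and ILMN_3120827 6827 bases. In GRCm38.p6 the Pltp span begins 5743 bases beyond that start and the Ctsa span ends 7257 bases beyond it. By these distances the 3 probes fell within the shared stretch, while ILMN_1213617 (569 bases) fell outside it. This holds only if the Ctsa probe coordinates share one build, which was not established. On the other side, the start of a Neurl2 probe lay at -1049 bases from that of ILMN_3045359 in the file and at -1048 bases in GRCm38.p6. That short distance does not check the longer ones.

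Ac-LDL arrays exceeded their controls in each of the 4 pairs on 1 probe annotated to Ctsa, but not on the other 4. Which transcript this probe, ILMN_2669714, reports was not established here: it was aligned to no transcript, and by distance it lies where the Ctsa and Pltp spans overlap. On ILMN_2669714 the normalized log2 intensity was 8.05, 8.76, 8.92 and 9.17 in control replicates 1 to 4, and 9.25, 9.61, 9.73 and 10.17 in the Ac-LDL arrays of the same numbers. The lowest Ac-LDL array lay above the highest control array, so the groups did not overlap. The means were 8.72 ± 0.48 and 9.69 ± 0.38 (SD, n = 4 each), a log2 difference of 0.96 (SE 0.25, 95% interval 0.41 to 1.52) or 1.95-fold higher. The raw intensities ran from 329.7 to 681.3 in control and from 572.2 to 1103 with Ac-LDL, and the probe was detected on all 8 arrays.

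The unpaired limma fit, the design of the study, did not call this probe after Benjamini-Hochberg adjustment over the 17122 tested probes (adjusted p = 0.526, unadjusted p = 0.00299). Its unadjusted p was the 97th smallest of all tested probes. The exact permutation test of the group means gave a two-sided p of 0.0286, the smallest that 4 arrays against 4 allow. With replicate number as a block, limma called it (adjusted p = 0.00869, 95% interval 0.76 to 1.17), and with slide as a block it was called narrowly (adjusted p = 0.0488), a call that ended with cyclic loess (0.0549) or median centring (0.0643) in place of quantile normalization. The change was 1.20, 0.86, 0.81 and 1.00 in pairs 1 to 4. Leaving out both arrays of replicate 4 from the replicate-blocked fit ended the call (adjusted p = 0.0566, log2 difference 0.95).

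On the main Ctsa probe ILMN_1213617, the brightest of the 5, control replicates 1 to 4 gave 9.59, 9.39, 9.88 and 9.51 and the Ac-LDL arrays 9.69, 9.04, 10.30 and 9.66. The Ac-LDL arrays lay both below and above the whole control range. The log2 difference was 0.08 (SE 0.23, 95% interval -0.42 to 0.59, limma adjusted p = 0.994). It was -0.12 within slide 1 and 0.29 within slide 2. It turned negative without Ac-LDL replicate 3 (-0.12).

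ILMN_3045359 read 6.41, 6.33, 6.69 and 6.25 in control and 6.40, 5.94, 6.81 and 6.59 with Ac-LDL. ILMN_2681631 read 5.95, 6.25, 6.18 and 5.98 against 6.08, 5.96, 6.59 and 6.23. ILMN_3120827 read 6.50, 6.57, 6.70 and 6.60 against 6.35, 6.13, 7.03 and 6.93. In all 3 the groups overlapped, with log2 differences of 0.017, 0.13 and 0.017 and limma adjusted p of 0.998, 0.986 and 0.998. Their 95% intervals ended at 0.41, 0.44 and 0.44, all below the mean change of ILMN_2669714. These intervals and that of the main probe (to 0.59) each overlapped the interval of ILMN_2669714 (from 0.41).

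**Figure D1:**
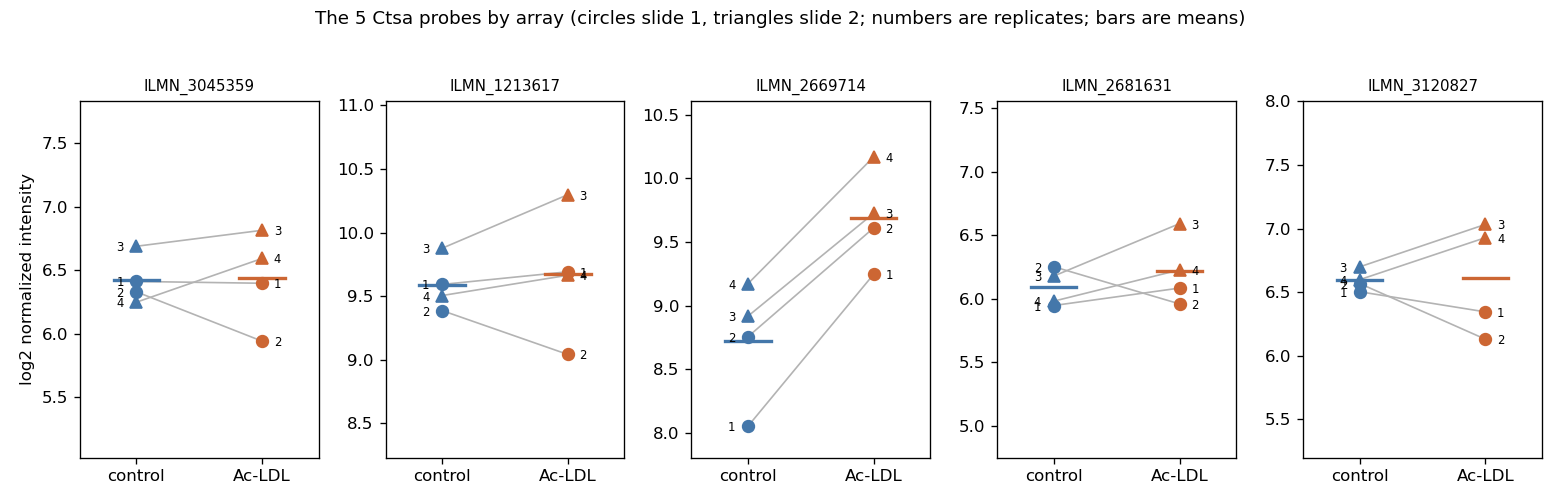
Normalized log2 intensity of each Ctsa probe in the control and Ac-LDL arrays, 1 panel a probe with a common span of the axis. Lines join arrays of one replicate number, circles are slide 1, triangles slide 2 and bars group means. Only the panel of ILMN_2669714 has groups that do not overlap (control 8.05 to 9.17, Ac-LDL 9.25 to 10.17).

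Pairs of probes were compared through their log2 ratio on each array, which removes what the array shares. The 4 ratios that involve ILMN_2669714 changed with Ac-LDL by 0.84 to 0.95 on the log2 scale, and the other 6 Ctsa ratios by at most 0.11. Against ILMN_1213617 the excess of ILMN_2669714 was 0.88 (SE 0.31), with 1.10, 1.20, 0.39 and 0.84 in pairs 1 to 4. All 4 pairs of arrays went the same way. The exact permutation test gave p = 0.114 for that ratio and between 0.0286 and 0.114 for the 4, each 0.457 after adjustment over the 16 pairs of cathepsin probes.

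Over the whole array, 6314 pairs of tested probes shared a symbol, from 3413 genes. Their changes differed by a median of 0.0937 on the log2 scale, and 1% of pairs differed by more than 0.441. The 4 Ctsa pairs with ILMN_2669714 held the first 4 ranks of the 6314. All 4 contain that same probe, so these ranks are not independent of one another. No pair was called by limma without a block (0% of pairs), nor with the replicate block (0%). There the Ctsa pairs reached adjusted p of 0.423 to 0.444. The 2 groups' ratios did not overlap for 1 of the 4, against 2.2% of all pairs.

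**Figure D2:**
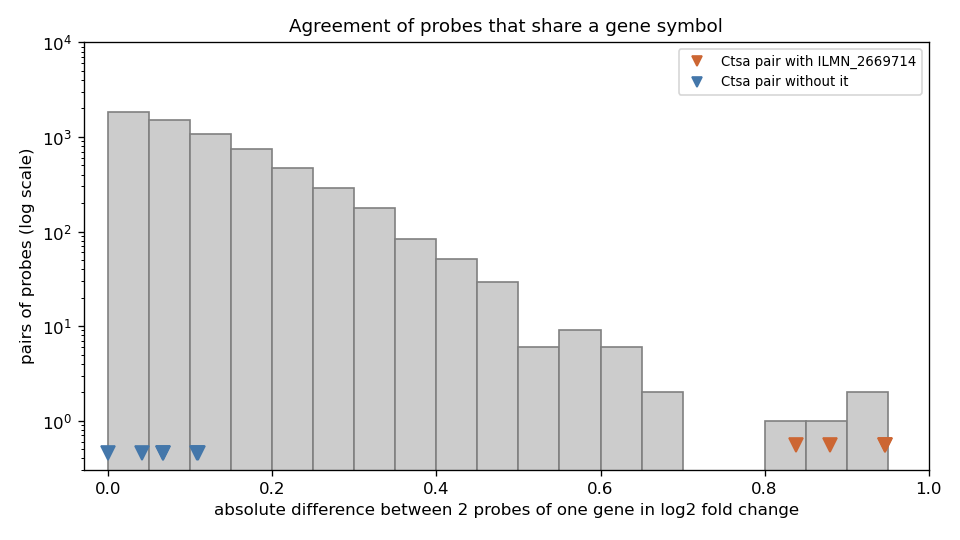
Grey bars count the 6314 pairs of probes with one symbol by the absolute difference of their log2 fold changes, on a log count axis. Triangles, some of which coincide, mark the 10 Ctsa pairs: the 4 with ILMN_2669714 lie at 0.84 to 0.95, beyond every other pair, and the 6 without it at 0.11 or less.

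Correlations between the probes are given as a description only. The treatment difference was left in, and its effect on the values for ILMN_2669714 was not tested. After subtraction of each slide's mean, the 4 other Ctsa probes correlated with one another at r = 0.66 to 0.91 over the 8 arrays, and with ILMN_2669714 at -0.24 to 0.26. With slide means left in, the ranges were 0.75 to 0.94 and 0.12 to 0.42. These values describe arrays that share slide and treatment. The genes whose probes were most like ILMN_1213617 were Cox7a2l, Msn, Atp6ap2, Rfng and Bmi1 (r from 0.985 to 0.995), with log2 differences of 0.036 to 0.14. Atp6ap2 is an accessory subunit of the proton pump that acidifies lysosomes, and Msn is moesin, which links membrane and actin.

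Those most like ILMN_2669714, listed after its values were seen, were 1700034H14Rik, Dusp23, Smap2, Rfc2 and Mmp27 (r from 0.979 to 0.997). In 4 of them the log2 difference was 0.16 to 0.30, with limma adjusted p of 0.164 to 0.399 with the replicate block. The other, Mmp27, a matrix metalloproteinase, had a log2 difference of 0.75 (SE 0.19) and limma adjusted p of 0.526 without and 0.0185 with the replicate block.

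Pltp, the gene that overlaps Ctsa, had 1 probe, ILMN_2589401, dim but detected on all 8 arrays. It read 4.89, 5.42, 5.47 and 5.66 in control and 5.46, 5.61, 6.12 and 6.41 with Ac-LDL, so the groups overlapped while every pair was higher with Ac-LDL. Its log2 difference was 0.54 (SE 0.23, limma adjusted p = 0.907, 0.0802 with the replicate block). Pair changes were 0.57, 0.19, 0.66 and 0.75. In likeness to ILMN_2669714 it ranked 53rd of 17121 probes (r = 0.95), against 10871st for ILMN_1213617 (r = -0.21). Ctsh ILMN_2872058 (r = 0.93), Ctsl (r = 0.88) and Ctsh ILMN_2775154 (r = 0.83) ranked 95th, 284th and 567th. Since treatment was not removed, probes that were higher with Ac-LDL score high. These ranks therefore cannot tell which transcript ILMN_2669714 reports. The part of Pltp transcripts in the signal of ILMN_2669714 was not tested. No transcript sequence was used here, so the assignment of this probe to Ctsa rests on its deposited annotation alone (symbol, transcript and position). The 1.95-fold value is that of the probe, which may not report Ctsa mRNA at all, and the disagreement described above is between probes that share a symbol. Neurl2, on the other side of Ctsa, had a log2 difference of 0.022 (SE 0.10).

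Of the 10 cathepsins, 9 had a tested probe, meaning that 4 or more of the 8 arrays gave a detection p of 0.05 or less. These 18 probes were each detected on all 8. In the unpaired limma fit 0 of the 18 were called at an adjusted p under 0.05, where 0.0409% of all tested probes were (0.00584% upwards), and 1 had an unadjusted p under 0.05 (5.2% of all). With the replicate block 1 was called (0.444% of all), and with the slide block 1 (0.321%), in both cases ILMN_2669714. Its groups were the only ones of the 18 that did not overlap (3.8% of all tested probes, 2.11% with Ac-LDL above). By the methods' t-test at its upward limits, a fold of at least 1.4 and an unadjusted p under 0.05, it was again the 1 probe of 18 to pass (0.164% of all tested probes), and after Benjamini-Hochberg adjustment 0 passed. By point value 13 probes, 5 of them annotated to Ctsa, stood above control and 5 below it, where 50.4% of all tested probes stood above. The median log2 difference was 0.023 over these 18 and 0.0012 over all tested probes. By the brightest probe of each of the 9 genes, 5 were above and 4 below, with a median of 0.0089. In bulk RNA, fewer cells of a type and less RNA per cell cannot be told apart.

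**Figure D3:**
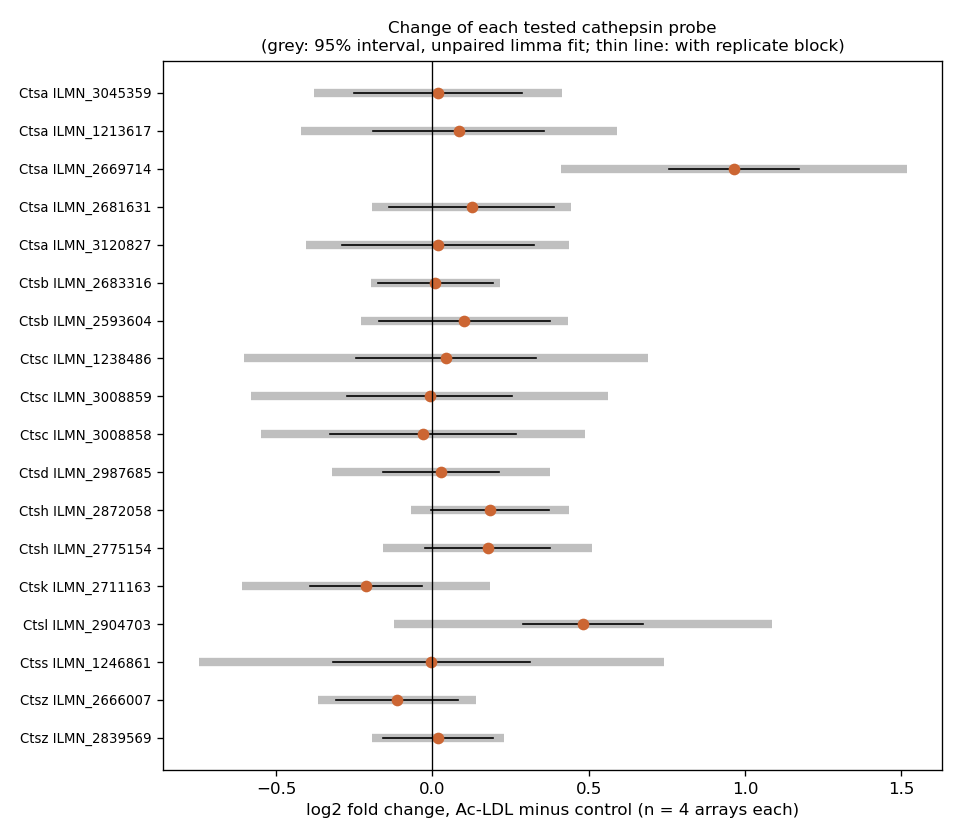
Log2 fold change (Ac-LDL minus control, 4 arrays each) of the 18 tested cathepsin probes with 95% intervals from the unpaired limma fit (grey) and the replicate-blocked fit (thin line). In the unpaired fit only the interval of ILMN_2669714 leaves out 0 (0.41 to 1.52). With the block those of Ctsl (0.29 to 0.68) and Ctsk (-0.39 to -0.035) do so too, without a call after adjustment.

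Ctsl, an endopeptidase of broad specificity (chr13:64361890-64370772, GRCm38.p6), had the next largest difference. Its probe read 8.47, 8.87, 9.59 and 9.47 in control and 9.14, 9.32, 10.06 and 9.81 with Ac-LDL. Every pair was higher with Ac-LDL, by 0.34 to 0.66, while the groups overlapped because both slide 2 controls lay above both slide 1 Ac-LDL arrays. The log2 difference was 0.48 (SE 0.27, 95% interval -0.12 to 1.09, limma adjusted p = 0.961). Blocking by replicate gave an adjusted p of 0.0595 and blocking by slide 0.127, so limma called it in none of these fits. Without control replicate 1 the log2 difference was 0.27.

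Ctsk, the collagen- and elastin-degrading cathepsin of osteoclasts and macrophages (chr3:95499210-95509387), was lower in 4 of 4 pairs. Control arrays read 13.14, 13.38, 12.93 and 12.79, and Ac-LDL arrays 12.99, 13.23, 12.67 and 12.49. The log2 difference was -0.21 (SE 0.18, limma adjusted p = 0.975, 0.296 with the replicate block). It was the cathepsin furthest below 0, and its groups overlapped. The value was -0.096 without Ac-LDL replicate 4, -0.11 without control replicate 2 and -0.34 without Ac-LDL replicate 2. One direction in all 4 pairs was also seen in 21.8% of all tested probes, and in 4 of the 18 here (ILMN_2669714, Ctsl, Ctsk and 1 Ctsh probe).

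Ctsh (chr9:90054267-90076095), an aminopeptidase, gave like values on both probes. ILMN_2872058 read 11.91, 12.09, 12.31 and 12.25 in control and 12.21, 12.29, 12.32 and 12.48 with Ac-LDL. The log2 differences were 0.18 (SE 0.11) on this probe and 0.18 (SE 0.15) on ILMN_2775154, with limma adjusted p of 0.961 and 0.977. Without control replicate 1 the values were 0.11 and 0.072. On ILMN_2775154 the pair of replicate 3 went the other way (-0.033).

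Ctsb (chr14:63122462-63145923), an endopeptidase that also removes dipeptides from the C terminus, varied little. Its main probe lay between 14.39 and 14.62 on all 8 arrays, and the log2 difference was 0.0089 (SE 0.093, 95% interval -0.20 to 0.22). The dimmer probe ILMN_2593604 differed by 0.10 (SE 0.15).

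Ctsd (chr7:142375910-142387827), the main lysosomal aspartic protease, had 1 probe with 7.13, 7.36, 7.43 and 7.69 in control and 7.15, 7.27, 7.58 and 7.72 with Ac-LDL. The arrays of a pair lay close together and the log2 difference was 0.027 (SE 0.16, 95% interval -0.32 to 0.38). Ctse (chr1:131638314-131675507), an aspartic protease of endosomes, was not well above background: neither of its 2 probes was detected on any array (detection p from 0.108 to 0.983), so no fold is given.

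Ctsc (chr7:88278024-88315861), the dipeptidyl peptidase that activates granule serine proteases, had 3 probes that moved together (r = 0.94 to 0.99 after removal of slide means). The main probe read 9.88, 10.17, 10.64 and 11.11 in control and 10.25, 10.34, 10.39 and 10.69 with Ac-LDL. All Ac-LDL arrays lay inside the control range, and the log2 difference was -0.030 (SE 0.23). On slide 1 both pairs were higher with Ac-LDL (mean 0.27) and on slide 2 both were lower (mean -0.33). The other 2 probes showed the same split, at 0.24 and -0.26 and at 0.32 and -0.23. The interaction of treatment with slide had unadjusted limma p of 0.027 to 0.044 for these probes and adjusted p of 0.563 to 0.591. It was called for 0 of 18 cathepsin probes and 0% of all tested probes, with 4 of 18 (these 3 and Ctsa ILMN_3120827) and 8.38% at an unadjusted p under 0.05.

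Ctss (chr3:95526786-95556405), which cuts the invariant chain of MHC class II, read 9.26, 9.53, 10.54 and 10.60 in control and 9.65, 9.61, 9.99 and 10.67 with Ac-LDL. The group means were 9.98 in both, with a log2 difference of -0.0033 (SE 0.34). The 95% interval of -0.75 to 0.74 was the widest of the 18 in the unpaired fit. With the replicate block it was -0.32 to 0.31.

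Ctsz (chr2:174427494-174439039), a carboxypeptidase also called cathepsin X, is measured by a pair of probes that are close to one sequence. Capitals mark the 48 bases they share, offset by 2.
ILMN_2666007: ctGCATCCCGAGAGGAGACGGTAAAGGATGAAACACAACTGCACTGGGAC
ILMN_2839569: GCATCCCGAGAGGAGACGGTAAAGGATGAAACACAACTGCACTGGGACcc
They serve as a near-technical repeat. ILMN_2666007 read 11.80, 11.59, 12.07 and 11.88 in control and 11.66, 11.65, 11.79 and 11.78 with Ac-LDL, and ILMN_2839569 11.44, 11.39, 11.51 and 11.64 against 11.41, 11.46, 11.57 and 11.61. The log2 differences were -0.11 (SE 0.11) and 0.018 (SE 0.096), 0.13 apart. The ratio of these near-identical probes thus moved by more than any of the 6 ratios among the other 4 Ctsa probes, and by far less than the ratios with ILMN_2669714. Over the 8 arrays, less slide means, their r was -0.33 within a narrow range of levels, and 0.55 with slide means left in, so a low slide-centred r also occurs between near-identical probes. The file places them 182564 bases apart, so its probe coordinates cannot all be of one build.

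**Figure D4:**
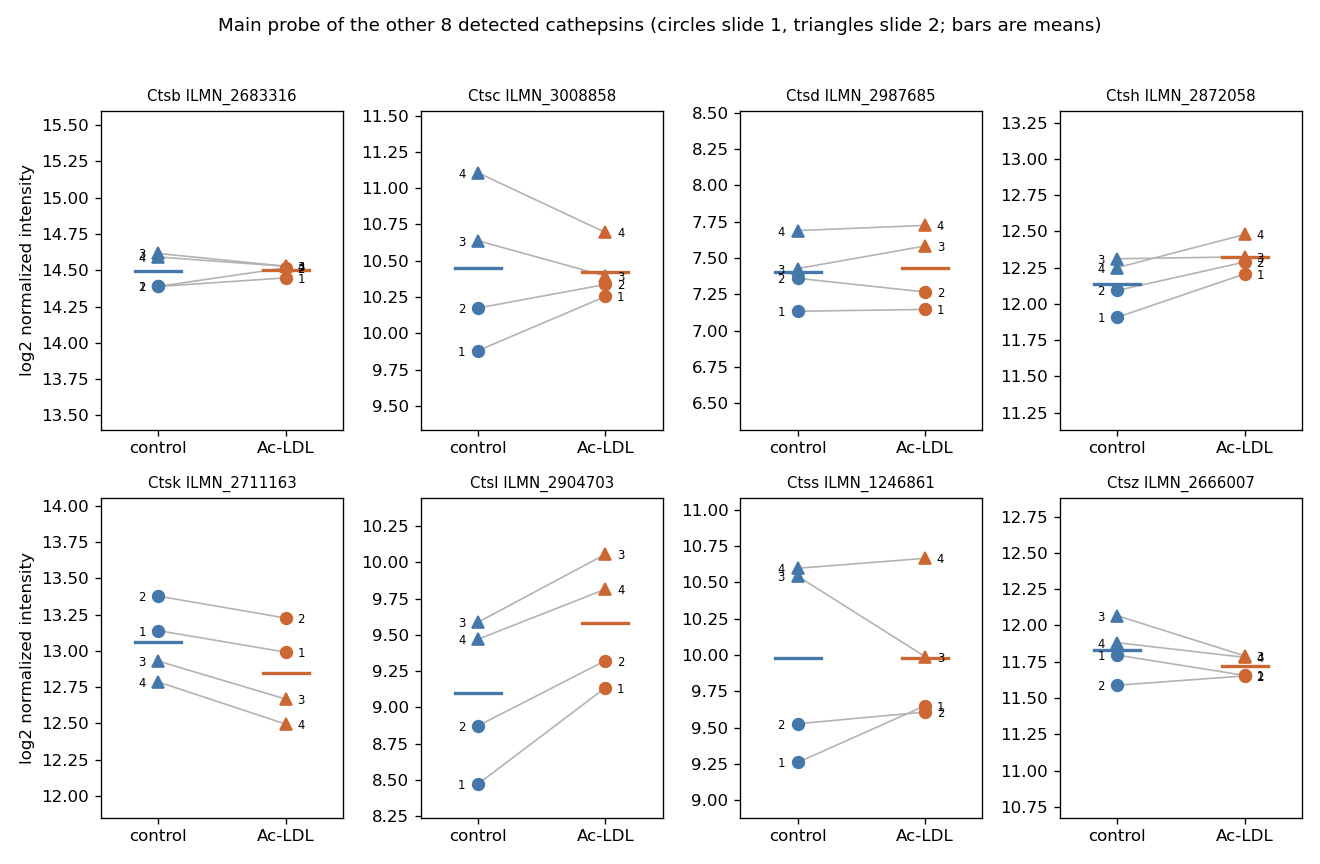
Normalized log2 intensity of the main probe of the 8 other detected cathepsins, drawn as for Ctsa, with one span for all axes. Ctsl was higher with Ac-LDL and Ctsk lower in every pair, the Ctsc lines cross between slides, and slide 2 arrays (triangles) lie above slide 1 arrays in both groups for Ctsl.

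More cathepsin probes differed between slides than between groups. In the limma fit with slide and treatment, 10 of the 18 cathepsin probes differed between slides at an adjusted p under 0.05, where 23.6% of all tested probes did. Of these 9 were higher on slide 2 (11.7% of all tested probes) and 1, Ctsk, was lower by 0.46 (a difference of -0.46, adjusted p = 0.00836). The slide 2 excess was 0.94 for Ctss, 0.78 for Ctsl, 0.55 to 0.81 for the Ctsc probes and 0.58 for ILMN_2669714. For Ctsb it was 0.13 and not called (adjusted p = 0.237). Slides and replicate cultures cannot be told apart, since replicates 1 and 2 were all on slide 1. The slide fit, here and for the lists below, counts each array as independent, although same-numbered arrays may be paired. Its p-values for slide may therefore be too small.

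**Figure D5:**
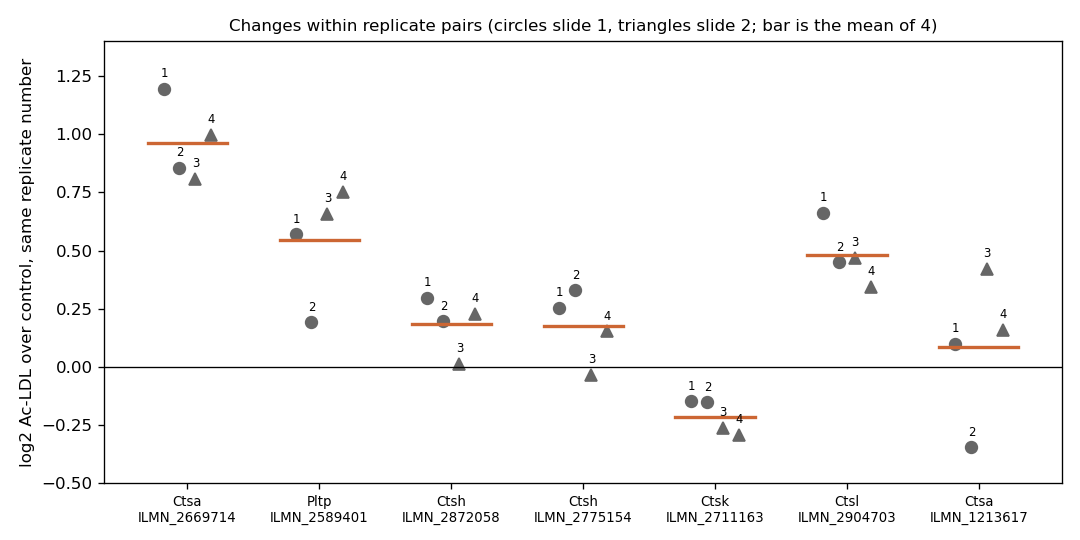
Log2 Ac-LDL over control within each replicate number for probes of 4 cathepsin genes and of Pltp, circles for slide 1 and triangles for slide 2, with the mean as a bar. ILMN_2669714 lies at 0.81 to 1.20 and Ctsl at 0.34 to 0.66 in all 4 pairs, while ILMN_1213617 runs from -0.34 to 0.42.

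Genes around the cathepsins were taken by list, each by its brightest tested probe, and in the unpaired limma fit 0 genes of any list were called, against 0.0409% of all tested probes. Counts of genes at an unadjusted p under 0.05 (5.2% of all tested probes) follow by list. Of 13 other cathepsins 1 was tested, Ctsf (0.20, SE 0.13), 0 were under 0.05, and the probes of 9 were not detected on any array. Of 15 cathepsin inhibitors (cystatins, stefins, serpins and the Ctla2 propeptide-like inhibitors) 8 were tested, 3 higher and 5 lower by point value, with 1 under 0.05. That was Serpinb6a, an intracellular serpin, at 0.22 (SE 0.088, adjusted p = 0.887). Of 6 other lysosomal peptidases 5 were tested and 2 were under 0.05, as were 5.2% of all tested probes. Lgmn, the asparaginyl endopeptidase that processes cathepsin precursors, was 0.36 higher (SE 0.12, adjusted p = 0.841) and Dpp7, a dipeptidyl peptidase, 0.26 lower on the log2 scale (a difference of -0.26, SE 0.084, adjusted p = 0.784). In both genes the groups did not overlap (3.8% of all tested probes).

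The partners of Ctsa in its lysosomal complex, which it protects from degradation, were each tested and none was under 0.05. Glb1, beta-galactosidase, differed by 0.11 (SE 0.12), Neu1, the sialidase, by -0.15 (SE 0.095) and Galns by 0.17 (SE 0.15). All 11 genes for the sorting of lysosomal enzymes were tested, 9 with a higher and 2 with a lower point value and 0 under 0.05. The lowest unadjusted p was that of Sort1, the sorting receptor sortilin (0.41, SE 0.20, adjusted p = 0.949). Igf2r, the large mannose 6-phosphate receptor, differed by 0.25 (SE 0.19). The 7 genes of class II antigen presentation were all tested, 5 with a higher and 2 with a lower point value (Cd74 -0.030, H2-Aa -0.12) and a median of 0.23, and 0 were under 0.05. Between slides 5 of the 7 differed (23.6% of all tested probes). Ifi30, a lysosomal thiol reductase, differed by 0.34 (SE 0.22, adjusted p = 0.961) and H2-DMa by 0.37 (SE 0.33). Of the 8 genes at the Ctsa locus 6 were tested, 3 higher and 3 lower, with Pltp alone under 0.05.

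Of the MiT factors, which bind the sequence CACGTG in promoters of lysosomal genes, only Mitf had a tested probe (0.25, SE 0.15), not under 0.05. The RefSeq promoter windows, 250 bases before to 50 after a transcript start, matched 7 of the 10 cathepsins by symbol, in 8 windows. Ctsb, Ctse and Ctsh had no entry. CACGTG, a palindrome that reads alike on both strands, was in 1 of the 2 Ctsa windows and in those of Ctsd and Ctsl, 3 of the 8, and in 7.15% of all 32851 windows. The Ctsa window at chr2:164833523-164833822 (plus strand, GRCm38.p6) is shown because its end holds the start of ILMN_3045359, with the CACGTG copies in capitals.
Ctsa promoter: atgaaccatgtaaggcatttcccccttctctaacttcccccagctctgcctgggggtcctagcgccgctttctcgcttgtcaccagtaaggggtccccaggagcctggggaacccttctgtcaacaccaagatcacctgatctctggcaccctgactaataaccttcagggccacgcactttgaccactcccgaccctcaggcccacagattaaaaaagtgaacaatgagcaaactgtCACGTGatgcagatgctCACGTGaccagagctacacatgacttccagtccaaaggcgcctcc
It holds 2 copies, as does the Ctsd window, and 0.594% of all windows hold 2 or more. The probes of these 3 genes other than ILMN_2669714 were not called in the unpaired fits or, with the main processing, in the blocked fits.

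The cells carried the defining transcripts of macrophages: 8 of 9 macrophage markers were tested, among them Adgre1, Cd68, Csf1r and Lyz2 on all 8 arrays, while the Msr1 probe was detected on none. Their summed background-corrected intensity was 35794 to 44259 in control and 36960 to 42988 with Ac-LDL. Of the 8, 2 (Mertk and Fcgr1) had an unadjusted p under 0.05. Mertk, an efferocytosis receptor, was the 1 called with the replicate block, where 0.444% of all tested probes were (0.56, SE 0.19, limma adjusted p = 0.817 without and 0.0364 with it). The slide block did not call it (adjusted p = 0.166). Fcgr1 differed by 0.61 (SE 0.27) and Cd14 by -0.48 (SE 0.26). Between slides 4 of the 8 differed (23.6% of all tested probes), all 4 higher on slide 2 (11.7%), Adgre1 by 1.19. The part of cell state or composition in the slide difference was not tested.

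Most markers of other immune cells were not detected. Among 10 neutrophil markers 2 were tested, 1 of them (S100a8) with an unadjusted p under 0.05, and 6 were detected on no array. S100a8 differed by 0.24 (SE 0.087, adjusted p = 0.845) without overlap, and the list's sum was 551 to 607 in control and 653 to 717 with Ac-LDL, while S100a9, Mpo, Ngp and Camp were not detected. Tested were 1 of 7 dendritic, 1 of 7 B cell, 2 of 10 T and NK and 1 of 10 mast cell and eosinophil markers, 0 of them under 0.05, and the highest sum of any of these lists on any array was 53.6. Of 8 fibroblast and mesothelial markers 7 were tested, 3 higher and 4 lower and 1 (Col1a2) under 0.05, with sums of 12661 to 17763 in control and 13886 to 16017 with Ac-LDL. Col1a2, a collagen chain, differed by -0.23 (SE 0.093, adjusted p = 0.887). Between slides 2 of the 7 differed (23.6% of all tested probes), both lower on slide 2. These were Col1a1 (-0.41) and Lum (-0.99). The part of these cells in the cathepsin values was not tested.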

How the data were processed

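Total RNA of 8 cultures was labelled with biotin and hybridized to Mouse WG-6 v2.0 bead chips, 1 array each, per the labels (the study's methods name mRNA purified from it), and the labels call the arrays biological replicates. The authors deposited, from BeadStudio (version not given in the sources used here), a non-normalized table with a mean bead intensity, a detection p-value, the standard error over beads and the number of beads for each probe and array. The authors' own normalization in GeneSpring was not used here. The deposited intensity values were background-corrected from the detection p-values and quantile-normalized with neqc (limma 3.58.1, R 4.3.3, offset 16), which understates changes of dim probes. Probes with a deposited detection p-value at most 0.05 on at least 4 of 8 arrays were tested (17122). Between 36.8% and 38.5% of probes were detected per array, at a median of 43 to 44 beads. The number of arrays limits the precision.

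Groups came from the labels. limma (lmFit, eBayes) compared 4 Ac-LDL with 4 control arrays, unpaired as in the study, with Benjamini-Hochberg adjustment over all tested probes and exact two-sided permutation tests (70 assignments) for single values. Same-numbered arrays deviated together from their group means (r = 0.579, 0.479, 0.468 and 0.629 for replicates 1 to 4). Such arrays also share a slide, so these r values cannot separate replicate number from slide. The replicate numbers of the labels were taken to pair the samples, which was not established. The blocked value is given where it changes a call. limma was also run on per-array log2 ratios of all pairs of probes with one symbol. The limma fit, without a block and with the replicate block, was tested on simulated data that held no pair or slide effect. The permutation test was checked on a fixed set of values, and the other steps were not tested in this way.

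The 10 cathepsins and all lists were chosen with earlier results of these data known: other cathepsins, cathepsin inhibitors, other lysosomal peptidases, Ctsa complex partners, lysosomal enzyme sorting, MiT transcription factors, class II antigen presentation, the Ctsa locus, and markers of macrophages, neutrophils, dendritic, B, T and NK, mast cells and eosinophils, and fibroblasts and mesothelium. Named were all members, the genes called in a list or else at most the 4 with the smallest unadjusted p, Pltp, and the 5 genes most like the main Ctsa probe by Pearson correlation. Other genes named within a list (Ctsa partners, class II genes and markers) were chosen for their role or after their values were seen. Sequences came from the deposited table and from RefSeq tables of GRCm38.p6. Alternatives tried were other background corrections, normalizations, offsets, filters, blocks, priors, the methods' t-test and leaving out arrays.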

Additional observations from a re-analysis of the deposited data

Results flagged for a closer look

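Of the 36 sets of 4 arrays formed by 18 cathepsin probes and 2 groups, 1 held an array that stood apart from the other 3 by Dixon's ratio, where chance gives about 1 in 20. On the main Ctsb probe, Ac-LDL replicate 1 read 14.45 (14.4477) against 14.52 for the nearest of the others. The distance is 0.070 on the log2 scale and lies within the control range of 14.39 to 14.62. No cathepsin probe changed differently between slides after adjustment.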

How the results depend on the processing

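No cathepsin probe was called in the unpaired fit under any background correction, normalization, offset, filter, prior or left-out array tried, nor by the methods' t-test. With the replicate block 1 was called and with the slide block 1, in both fits ILMN_2669714 (0.96 in each). This probe is annotated to Ctsa but may not report its mRNA. It kept the replicate-block call in every background correction, normalization and offset tried (adjusted p 0.000158 to 0.0107) and lost the slide-block call with cyclic loess (0.0549) and with median centring (0.0643). Its change was 0.74 to 1.11 with arrays left out, and 1.03 within slide 1 and 0.90 within slide 2. Over all 17122 probes 7 were called, 14 with normexp fitted on all probes, 14 with median centring, 0 without a filter on dim probes, 76 with the replicate block, 55 with the slide block, 16 with a trended and robust prior, 0 with the methods' t-test, and 0 to 15 with arrays left out. The main Ctsa probe ran from -0.12 to 0.29 with arrays left out and was negative without Ac-LDL replicate 3 (-0.12) or both arrays of replicate 3 (-0.029). The excess of ILMN_2669714 over it stayed positive, at 0.66 to 1.08. Of the 16 other probes, 10 changed sign in some setting, in 49 of 368 combinations of probe and setting, none of them called. With arrays left out these ran from -0.11 to 0.18 (Ctsa ILMN_3045359), -0.12 to 0.18 (Ctsa ILMN_3120827), -0.034 to 0.25 and -0.031 to 0.049 (Ctsb), -0.16 to 0.30, -0.22 to 0.19 and -0.19 to 0.21 (Ctsc), -0.071 to 0.12 (Ctsd), -0.24 to 0.20 (Ctss) and -0.018 to 0.067 (Ctsz ILMN_2839569, also -0.0026 with median centring). Ctsl (0.27 to 0.64) and Ctsk (-0.34 to -0.096) kept their sign, as did Ctsh (0.11 to 0.24 and 0.072 to 0.27). So did Ctsa ILMN_2681631 (0.00056 to 0.26) and Ctsz ILMN_2666007 (-0.20 to -0.035). The cause of these shifts was not tested. With the main processing the block changed no other cathepsin call. Blocked fits with other processing are given for ILMN_2669714 only. The treatment by slide interaction was called for 0 cathepsin probes with cyclic loess too. Dim probes, among them those of Pltp, 3 of the 5 of Ctsa and Ctsb ILMN_2593604, have folds compressed by the offset.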
